A study of Mus musculus with 8 samples.

Results

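The genes described here take up fatty acids into the heart muscle cell and oxidise them in its mitochondria. They are 32 listed gene symbols, all found among the 24062 genes of the deposited count tables and all among the 15508 genes tested, so that no gene of the list was lost to the filter on low counts. They were taken in order of step: uptake, activation, the carnitine shuttle, beta-oxidation with its helper enzymes, electron transfer, and the thioesterases, lipid droplet proteins and uncoupling proteins that act beside it.

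The samples were total RNA, depleted of ribosomal RNA, from left ventricular free wall of C57BL/6 males aged 8 to 12 weeks. Myocardial infarction (MI) was made by tying off the left anterior descending coronary artery, and sham mice had the operation without the tie. There were 4 groups of 2 mice each by the study's design, sham and MI at 1 day and sham and MI at 3 days after the operation, so each day had its own sham mice, and in MI the ischaemic tissue was collected. Both sham count columns at 1 day carry the same sample number in their header, whereas every other column has its own. The headers therefore do not show whether these 2 columns are separate mice, on which n = 2 in that group and the tests at 1 day rest. Their counts differed by more than counting noise, with a chi-square per degree of freedom of 18.2 over 13572 genes, the lowest of the 4 groups (23.98 in MI at 3 days, 47.4 in MI at 1 day and 68.5 in sham at 3 days). Within each group, the first count column is called library A and the next B. Levels are CPM, counts per 1000000 of edgeR's effective library size, which is the total count times a factor from the trimmed mean of M-values (TMM). A change is the log2 fold change of MI over sham in the same day, and a gene was said to have risen or fallen where its Benjamini-Hochberg adjusted p from edgeR's quasi-likelihood test was under 0.05.

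The adult heart draws most of its ATP from fatty acids. Lipoprotein lipase frees them from circulating triglyceride, CD36 and fatty acid transport proteins carry them across the membrane, and an acyl-CoA synthetase traps them as CoA esters. Carnitine palmitoyltransferase 1 on the outer mitochondrial membrane, the step that malonyl-CoA inhibits, commits the acyl group to the carnitine shuttle. In the matrix, each turn of beta-oxidation shortens the chain through a dehydrogenation, a hydration, a second dehydrogenation and a thiolytic cleavage. The electrons of the first dehydrogenation leave through the electron transfer flavoprotein. Many of these genes are known targets of the nuclear receptors PPARalpha and ERRalpha and their coactivator PGC-1alpha.

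The gene counts came to 18831791 to 20676514 per library in the sham groups, 12662237 and 7382490 in MI at 1 day, and 21055785 and 25041386 in MI at 3 days. A level of 3 counts equals 0.102 to 0.369 CPM, depending on the library. The tissue label was met by the cardiomyocyte markers, a list of 18 sarcomere and calcium-handling genes with no member of the fatty acid list. Their summed level was 135397 to 213684 CPM in the sham libraries, 116374 and 124271 in MI at 1 day, and 10041 and 9801 in MI at 3 days, and none of the 18 was at 0 in any library. Of these markers, 15 fell at 1 day and 18 at 3 days. Macrophage markers summed to 785 to 1511 CPM in sham and to 7078 and 7301 in MI at 3 days, where 12 of 12 rose, and fibroblast markers to 2242 to 4516 CPM in sham and 15181 and 15259 there, where 7 of 10 rose. The highest sham value of both of these lists was library A at 3 days. Neutrophil markers summed to 107 to 211 CPM in sham, 2009 and 964 in MI at 1 day, where 8 of 9 rose, and 812 and 437 in MI at 3 days, where 5 of 9 rose. The part of these cell types in the changes of the fatty acid genes was not tested. Endothelial markers summed to 1485 and 1300 CPM in sham and 1804 and 1595 in MI at 1 day, where 5 of 12 rose and 1 fell. At 3 days they summed to 1203 and 1186 CPM in sham and 1398 and 1114 in MI, where 3 rose and 3 fell. Their part was not tested either. No label names a preparation or sequencing batch, so a batch and a group cannot be told apart.

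At 1 day 22 of the 32 fatty acid genes had fallen and 0 had risen with TMM scaling, and at 3 days 30 had fallen and 1 had risen; scaled to the cardiomyocyte markers instead, 1 fell and 7 rose at 1 day, and 2 fell and 23 rose at 3 days. Of all genes, that other scaling had 3.30% fall and 54.9% rise at 1 day, and 0.619% fall and 91.9% rise at 3 days. Over all genes tested with TMM, 19.7% fell and 19.3% rose at 1 day, and 23.7% fell and 31.7% rose at 3 days. The median change of the list was -0.74 at 1 day and -3.08 at 3 days, beside 0.12 and 0.16 over all genes. Below -1 lay 9 members at 1 day and 30 at 3 days, and below -3 lay 0 and 18. Summed over the list, the level was 25992 and 28127 CPM in sham and 18748 and 17732 in MI at 1 day, and 24099 and 22411 in sham and 3352 and 3415 in MI at 3 days. Both MI libraries lay under both sham libraries for 25 members at 1 day, against 32.6% of all genes, and for 30 members at 3 days, against 35.1%. Both lay above for Cd36 and Cpt1a at 1 day (34.7% of all genes) and for Ucp2 at 3 days (45.9%). In bulk tissue, fewer heart muscle cells and less RNA per cell cannot be told apart, and the part that cell make-up has in these changes was not tested.

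**Figure D1:**
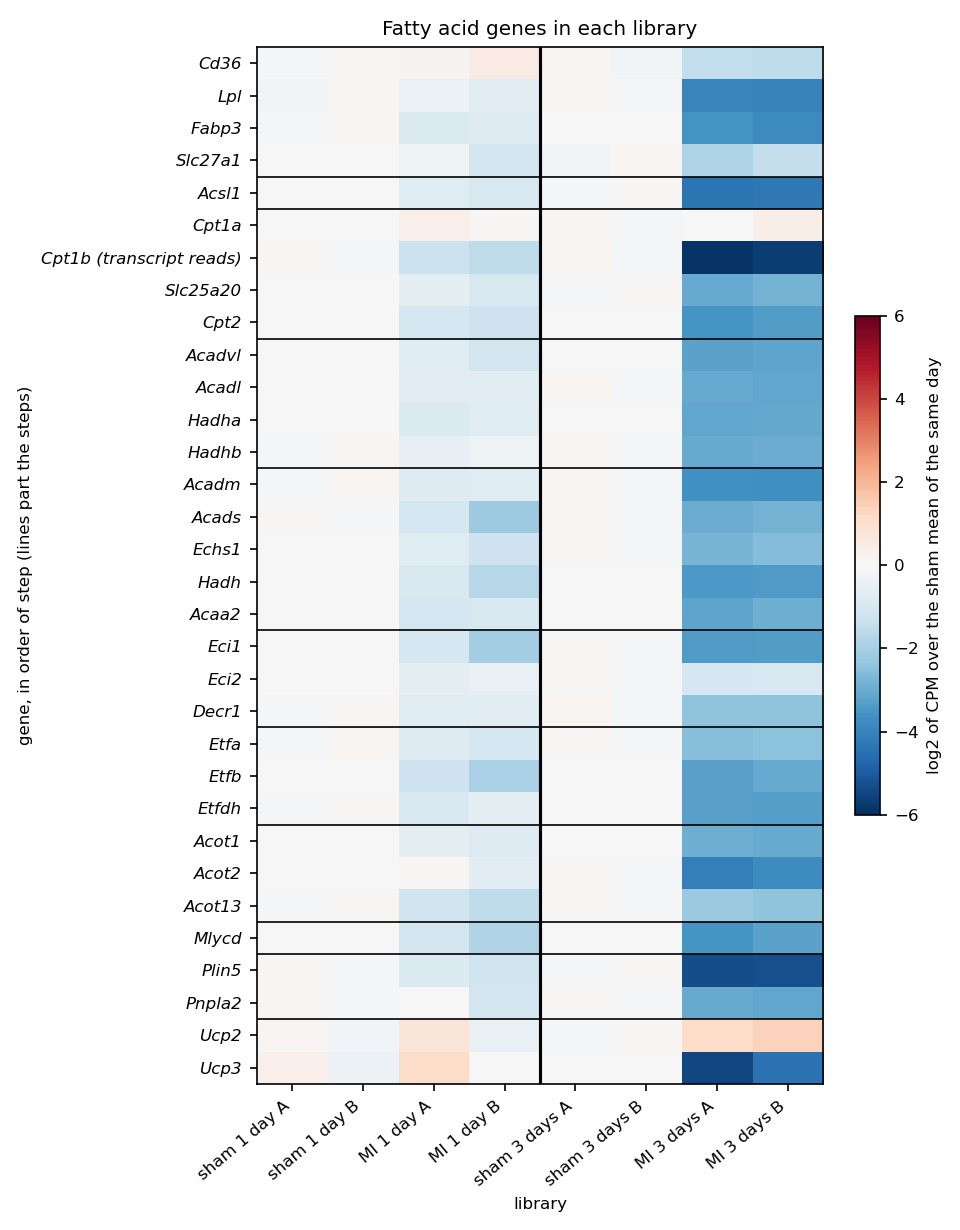
Each row is 1 gene and each column 1 library, coloured by the log2 of its CPM over the mean of the 2 sham libraries of the same day; Cpt1b is drawn from transcript reads, and lines part the steps. The MI libraries at 3 days are darker than those at 1 day in nearly every row under this TMM scaling, though not for Cpt1a. Ucp2 lies above its sham mean at 3 days.

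With TMM scaling the change was further from 0 at 3 days than at 1 day in all 32 members, and lower in 30. For Cpt1a the values were nearly equal, 0.195 at 1 day and 0.203 at 3 days. Scaled to the cardiomyocyte markers, not all members were further from 0 at 3 days. The test of the difference itself, the MI effect at 3 days minus that at 1 day, called 28 members lower and 0 higher, beside 11.3% of all genes lower and 13.2% higher, with a median of -2.24 (all genes -0.04). Scaled to the cardiomyocyte markers the same test called 2 members lower and 18 higher, beside 0.232% and 78.0% of all genes. With TMM, Slc27a1, Cpt1a, Eci2 and Ucp2 did not pass it. Within MI, 30 members were lower at 3 days than at 1 day and 1 was higher, beside 22.0% and 23.4% of all genes; scaled to the cardiomyocyte markers, 3 were lower and 21 higher, beside 0.419% and 88.0%. Within sham, 0 of 32 members and 0 of 15508 genes passed (0.00%), with 2 members and 1210 genes at an unadjusted p under 0.05, and the median of the list was -0.26. DESeq2's Wald test called 1 member between the sham days and limma-voom called 0, and their shares of all genes are not given here. Across the 32 members the changes at 1 day and at 3 days, which share no library, had a Spearman correlation of 0.25.

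**Figure D2:**
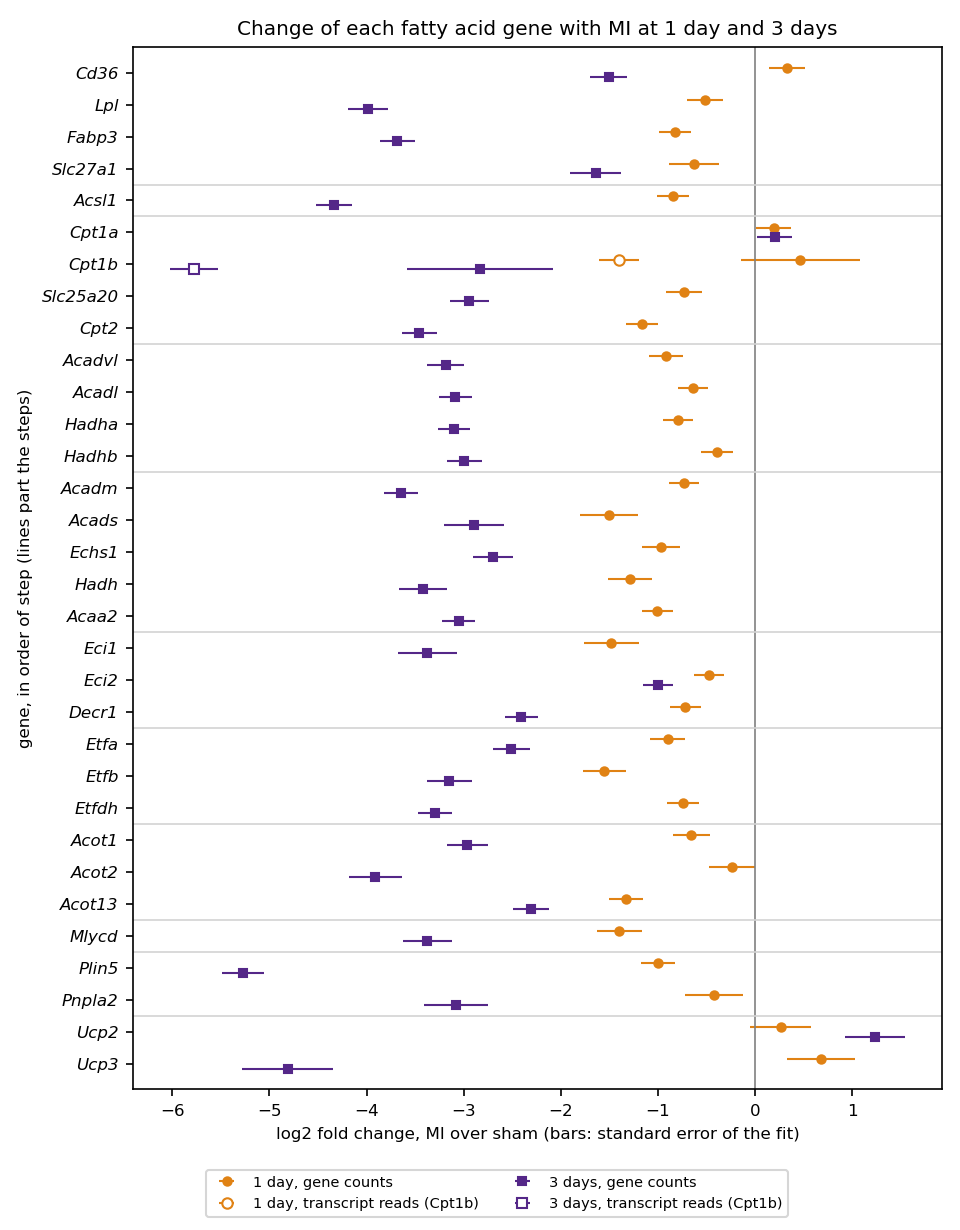
Points are log2 fold changes of MI over sham at 1 day (circles) and 3 days (squares) with TMM scaling, bars are standard errors of the fit, and open symbols give Cpt1b from transcript reads. At 1 day most points lie between -1.55 and 0, and at 3 days 27 of 32 lie below -2, with Ucp2 and Cpt1a to the right of 0.

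Promoter sequence from RefSeq (GRCm38.p6, the assembly of mm10; 250 bases before to 50 after a start) was matched for 27 members. The hexamer AGGTCA, which nuclear receptors bind, stood on either strand in 7 of them (25.9%), beside 18.1% of 27025 genes with a window. The longer TCAAGGTCA, which contains that hexamer and is the element of estrogen-related receptors, stood in 0 members and in 0.466% of genes. A direct repeat of the hexamer, 1 base apart, stood in 0 members and 0.0481% of genes. The GC box GGGCGG stood in 20 members (74.1%; 38.2% of genes), CCAAT in 13 (48.1%; 41.1%), and TATAAA in 0 (15.7% of genes). A match of letters is a description and not a site. The 250 bases before the start of 3 members are printed on the gene's strand, with GGGCGG and AGGTCA in capitals on either strand. Hadhb (chr5:30155003-30155252, plus strand) is shown because nearly all of the 272 bases that part its start from that of Hadha lie in it, Acadm (chr3:153944644-153944893, minus strand) because it is a classical PPARalpha target, and Ucp3 (chr7:100472741-100472990, plus strand) because its change differed most between the days.
Hadhb: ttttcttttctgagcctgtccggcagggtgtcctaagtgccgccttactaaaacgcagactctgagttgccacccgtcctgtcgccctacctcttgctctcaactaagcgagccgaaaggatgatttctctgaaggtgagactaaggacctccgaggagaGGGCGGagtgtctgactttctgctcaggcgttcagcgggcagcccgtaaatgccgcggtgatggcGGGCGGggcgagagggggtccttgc
Acadm: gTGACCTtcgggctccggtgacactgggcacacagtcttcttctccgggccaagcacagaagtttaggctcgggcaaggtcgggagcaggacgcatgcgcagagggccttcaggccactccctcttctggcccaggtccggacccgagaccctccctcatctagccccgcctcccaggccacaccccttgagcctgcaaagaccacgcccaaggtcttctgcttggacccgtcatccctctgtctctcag
Ucp3: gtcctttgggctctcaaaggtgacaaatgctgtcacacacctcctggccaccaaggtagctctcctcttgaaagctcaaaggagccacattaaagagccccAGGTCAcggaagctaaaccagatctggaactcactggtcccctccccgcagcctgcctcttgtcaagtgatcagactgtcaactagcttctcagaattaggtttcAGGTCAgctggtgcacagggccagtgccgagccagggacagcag
The Hadhb stretch holds 2 GC boxes and 0 copies of AGGTCA, that of Acadm 1 AGGTCA at its far end and 0 GC boxes, and that of Ucp3 2 copies of AGGTCA and 0 GC boxes.

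At the uptake step, 1 of 4 genes fell at 1 day and 4 of 4 at 3 days with TMM scaling (19.7% and 23.7% of all genes). Scaled to cardiomyocyte markers, 0 fell and 2 rose at 3 days (0.619% and 91.9% of all genes). Cd36, the membrane fatty acid translocase (chromosome 5, 17781690 to 17888959), held 3282 and 3722 CPM in sham and 3947 and 4848 in MI at 1 day, and 3714 and 3062 in sham and 1215 and 1169 in MI at 3 days. It was the only member whose 2 MI libraries were both above both sham libraries at 1 day and both below at 3 days. Its change was 0.33 (SE 0.18, adjusted p = 0.183) at 1 day and -1.51 (SE 0.19, adjusted p = 0.000109) at 3 days. With library size alone as the scaling, the value at 1 day was 0.62 and passed (adjusted p = 0.0381). Lpl, lipoprotein lipase, held 5239 and 6326 CPM in sham and 4484 and 3623 in MI at 1 day, and 5680.1 and 5184 in sham and 346 and 340.2 in MI at 3 days. The groups did not overlap at either day, and Lpl was 15.8-fold lower at 3 days, -3.99 (SE 0.21, adjusted p = 1.47e-06). At 1 day its change of -0.51 (SE 0.18, adjusted p = 0.0511) missed the threshold. With all libraries it passed with DESeq2 size factors (-0.56, adjusted p = 0.0383), DESeq2's Wald test (-0.57, adjusted p = 0.00644) and limma-voom (-0.51, adjusted p = 0.0313). Without MI library A at 1 day its change was -0.77.

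Fabp3, the fatty acid binding protein of heart muscle, held 678 and 735 CPM in sham and 383 and 416 in MI at 1 day, and 606 and 573 in sham and 49.8 and 42.1 in MI at 3 days. MI was below sham without overlap at each day, with a change of -0.82 (SE 0.16, adjusted p = 0.00389) at 1 day and -3.68 (SE 0.18, adjusted p = 1.26e-06) at 3 days. Slc27a1, fatty acid transport protein 1, held 193 and 195 CPM in sham and 158 and 91.4 in MI at 1 day, and 131 and 158 in sham and 39.7 and 52.8 in MI at 3 days. Its MI libraries at 1 day stood apart from each other, both under sham, and the change of -0.63 (SE 0.26, adjusted p = 0.0782) did not pass. It passed by DESeq2's Wald test (-0.70, adjusted p = 0.0377) and in transcript reads (-0.71, adjusted p = 0.0348), and was -1.18 without MI library A. At 3 days Slc27a1 fell by 1.64, less than Lpl or Fabp3. The test of the difference between the days missed the threshold for Slc27a1 (adjusted p = 0.0728), and passed without MI library B at 1 day (adjusted p = 0.00516). Activation rests on Acsl1, the long-chain acyl-CoA synthetase of heart, which held 1653 and 1705 CPM in sham and 1014 and 858 in MI at 1 day, and 1283 and 1394 in sham and 64.0 and 68.5 in MI at 3 days. Both MI libraries were under both sham libraries at each day, and Acsl1 fell 1.79-fold at 1 day and 20.2-fold at 3 days, -4.34 (SE 0.19, adjusted p = 1.26e-06). It was 1 of 2 members that also fell at 3 days when scaled to cardiomyocyte markers, -0.43 (SE 0.18, adjusted p = 0.0373). The 18 markers themselves ranged from -1.26 to 1.44 on that scale at 3 days, so Acsl1 lay within their own spread.

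In the carnitine shuttle, 2 of 4 genes fell at 1 day and 3 of 4 at 3 days with TMM scaling (19.7% and 23.7% of all genes). Scaled to cardiomyocyte markers, 3 of 4 rose at 3 days (91.9% of all genes). Cpt1b, the muscle form of carnitine palmitoyltransferase 1 (chromosome 15, 89416405 to 89425862), differed between the deposited tables. The gene table gives it 2 to 42 counts per library, while the transcript table gives 1560 to 10090 reads per library in the other groups and 147 and 203 in MI at 3 days. The symbol of a readthrough gene with its neighbour, ChkbCpt1b, is at 0 counts in every library of the gene table, and Chkb, the choline kinase gene beside it, has 0 to 21 counts against 487 to 1887 transcript reads. The cause of the gap was not tested. In transcript reads, Cpt1b held 584 and 518 CPM in sham and 225 and 192 in MI at 1 day, and 380.2 and 329 in sham and 6.02 and 6.90 in MI at 3 days. All MI libraries were under the sham libraries of their day, and the change was -1.40 (SE 0.20, adjusted p = 0.000812) at 1 day and -5.78 (SE 0.25, adjusted p = 1.25e-06) at 3 days, a 54.8-fold lower level and the lowest value of the list in that table. In gene counts, with 2 and 10 counts in MI at 3 days, the change was 0.47 (SE 0.61, adjusted p = 0.57) and -2.83 (SE 0.75, adjusted p = 0.00948). That last call was lost without sham library B (adjusted p = 0.13) and without MI library A at 3 days (adjusted p = 0.0636), and the call for the difference without 6 of the 8 libraries, both sham and library A of MI at 1 day, sham B and both MI at 3 days, at adjusted p = 0.0852 to 0.205.

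Cpt1a, the form of the same enzyme known from liver and many other tissues, held 77.9 and 76.1 CPM in sham and 94.9 and 81.2 in MI at 1 day, and 72.2 and 63.3 in sham and 69.8 and 86.1 in MI at 3 days. It overlapped between the groups at 3 days and had no call at either day with TMM scaling, 0.20 (SE 0.18, adjusted p = 0.416) and 0.20 (SE 0.18, adjusted p = 0.366). With library size alone as the scaling it passed at 3 days at 0.47 (adjusted p = 0.0471). Scaled to cardiomyocyte markers it passed at both days, 1.17 (SE 0.19, adjusted p = 0.000637) and 4.11 (SE 0.21, adjusted p = 1.96e-08). On that scale the median of all genes was 1.08 and 4.06. Per kilobase of transcript, Cpt1a made up 3.86% and 4.54% of the sum of Cpt1a and Cpt1b in sham and 10.9% and 11.7% in MI at 1 day, and 5.75% and 4.88% in sham and 77.6% and 78.0% in MI at 3 days. The share at 3 days followed Cpt1b, whose level per kilobase was 134 and 119.8 in sham and 2.46 and 2.50 in MI, while that of Cpt1a was 8.19 and 6.15 and 8.53 and 8.87. Slc25a20, the carrier that swaps acylcarnitine for carnitine across the inner membrane, held 329.8 and 314 CPM in sham and 224 and 164 in MI at 1 day, and 239 and 257 in sham and 30.2 and 34.4 in MI at 3 days. It did not overlap between groups at either day and was 7.68-fold lower at 3 days. Its fall at 1 day, -0.73 (SE 0.19, adjusted p = 0.0137), was not called when sham library A (adjusted p = 0.103) or sham library B was left out (adjusted p = 0.0712). Cpt2, which remakes the acyl-CoA in the matrix, held 339 and 336 CPM in sham and 160.3 and 141 in MI at 1 day, and 279 and 271 in sham and 23.3 and 26.8 in MI at 3 days. Its libraries of a group lay close together, and it fell 2.24-fold at 1 day and 11-fold at 3 days, -3.45 (SE 0.18, adjusted p = 1.39e-06).

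**Figure D3:**
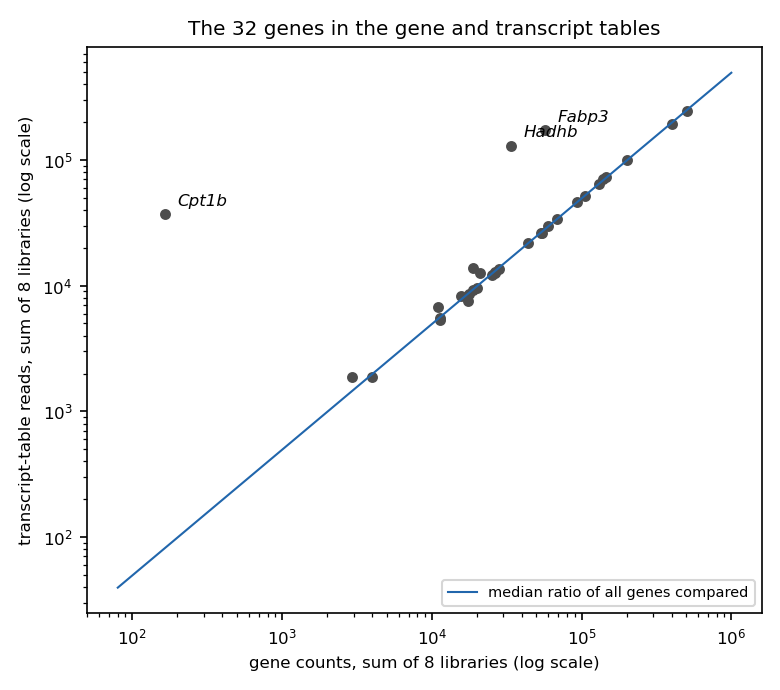
Each point is 1 of the 32 genes, with its gene counts over the 8 libraries on the horizontal axis and its transcript-table reads on the vertical axis, both on log scales, and the line is the median ratio of 12828 genes. Cpt1b lies far above the line at 166 counts and 37136 reads, and Fabp3 and Hadhb lie above it at 3.03 and 3.87 reads per count.

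Over 12828 genes the transcript table held a median of 0.494 reads per gene count (5th to 95th percentile 0.390 to 0.964), and 29 of the 32 members lay between 0.436 and 0.723. The other members were Cpt1b, Fabp3 at 3.03 and Hadhb at 3.87. RefSeq lists a pseudogene of each of Fabp3 and Hadhb, Fabp3-ps1 and Hadhb-ps, and neither table states how reads with several places were counted. The changes of Fabp3 and Hadhb in transcript reads, -3.74 and -3.0 at 3 days, stood beside -3.68 and -2.99 in gene counts. In the transcript table as a whole, 23 members fell at 1 day and 0 rose with TMM scaling, beside 20.1% and 17.1% of all genes there, and 30 fell and 1 rose at 3 days, beside 23.0% and 31.1%. The difference between the days was called lower in 28 members and higher in 0, beside 10.4% and 13.5%.

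Beta-oxidation of long chains is run by very long and long-chain dehydrogenases and the trifunctional protein. With TMM scaling 3 of its 4 genes fell at 1 day and 4 of 4 at 3 days (19.7% and 23.7% of all genes). Scaled to cardiomyocyte markers, 4 of 4 rose at 3 days beside 91.9% of all genes. Their median change was then 0.81, beside 4.06 over all genes. Acadvl, the very long-chain acyl-CoA dehydrogenase, held 1773 and 1837 CPM in sham and 1083 and 830.2 in MI at 1 day, and 1404 and 1448 in sham and 153 and 161 in MI at 3 days. Its groups were apart at each day, and it fell 1.89-fold and 9.09-fold, the largest fall of this step at 3 days, -3.18 (SE 0.19, adjusted p = 1.95e-06). Acadl, the long-chain dehydrogenase, held 641 and 661 CPM in sham and 417 and 419.6 in MI at 1 day, and 568 and 484 in sham and 64.0 and 59.7 in MI at 3 days. It was 8.50-fold lower at 3 days, and its call at 1 day, -0.64 (SE 0.16, adjusted p = 0.0113), did not hold when either sham library was left out (adjusted p = 0.0637 without A and 0.0702 without B). Hadha, the subunit of the trifunctional protein with the hydratase and the long-chain hydroxyacyl-CoA dehydrogenase (chromosome 5, 30119423 to 30154980), held 2413 and 2487 CPM in sham and 1341 and 1484 in MI at 1 day, and 2021 and 1950.0 in sham and 228 and 236 in MI at 3 days. Hadhb, the thiolase subunit read in the opposite direction from 30155253 on, held 360.0 and 397 CPM in sham and 266 and 311 in MI at 1 day, and 350.3 and 311 in sham and 41.1 and 42.1 in MI at 3 days. Both genes were lower in MI without overlap at each day, and their changes at 3 days, -3.10 (SE 0.17, adjusted p = 1.51e-06) for Hadha and -2.99 (SE 0.18) for Hadhb, were close. At 1 day Hadha fell by 0.79 and Hadhb, at -0.39 (SE 0.16, adjusted p = 0.0842), missed the threshold. Hadhb passed by DESeq2's Wald test (-0.45, adjusted p = 0.0245), and was -0.51 without MI library B. The ratio of Hadha to Hadhb was 5.77 to 6.70 in sham and 4.77 to 5.61 in MI by gene counts, but by transcript reads per kilobase sham, at 0.342 to 0.419, and MI, at 0.352 to 0.391, overlapped.

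The matrix enzymes of shorter chains fell at both days, 5 of 5 genes with TMM scaling (19.7% and 23.7% of all genes). Scaled to cardiomyocyte markers, 0 of 5 passed at 1 day and 4 of 5 rose at 3 days. With that scaling 3.30% of all genes fell and 54.9% rose at 1 day, and 91.9% rose at 3 days. Acadm, the medium-chain acyl-CoA dehydrogenase, whose upstream sequence is printed above, held 1482 and 1707 CPM in sham and 946 and 975 in MI at 1 day, and 1563 and 1456 in sham and 123 and 119 in MI at 3 days. Its 2 MI libraries were alike at each day, and it fell 1.66-fold at 1 day and 12.5-fold at 3 days, -3.64 (SE 0.17, adjusted p = 1.26e-06), the largest fall of these enzymes. Its call at 1 day was lost without sham library B (adjusted p = 0.0613). Acads, the short-chain dehydrogenase, held 249.7 and 232 CPM in sham and 115 and 53.3 in MI at 1 day, and 174 and 161 in sham and 21.3 and 23.8 in MI at 3 days. MI library B was under A by 2.16-fold at 1 day, but both lay below sham, and Acads fell 2.84-fold at 1 day and 7.43-fold at 3 days. The test of the difference between days called Acads (adjusted p = 0.0368), but not without any 1 of the sham libraries or of the MI libraries at 3 days (adjusted p = 0.103 to 0.196).

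Echs1, the short-chain enoyl-CoA hydratase, held 519 and 518 CPM in sham and 311 and 219 in MI at 1 day, and 453 and 419.7 in sham and 62.3 and 72.1 in MI at 3 days. Its fall at 3 days, -2.70 (SE 0.21, adjusted p = 5.89e-06), was the smallest of the 5 shorter-chain genes. Hadh, the hydroxyacyl-CoA dehydrogenase of the matrix, held 757 and 793 CPM in sham and 399 and 236 in MI at 1 day, and 617 and 601 in sham and 56.7 and 57.1 in MI at 3 days. MI library B was 1.70-fold under A at 1 day, and Hadh fell 2.44-fold at 1 day and 10.7-fold at 3 days. Acaa2, the matrix thiolase that cleaves off acetyl-CoA, held 1406 and 1376 CPM in sham and 667 and 717 in MI at 1 day, and 999 and 940.5 in sham and 108 and 126 in MI at 3 days. Echs1, Hadh and Acaa2 were lower in MI without overlap at both days, with changes of -0.97, -1.28 and -1.01 at 1 day and -2.70, -3.42 and -3.05 at 3 days.

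Unsaturated fatty acids need the isomerases Eci1 and Eci2 and the reductase Decr1. Of these, 3 of 3 fell at each day with TMM scaling (19.7% of all genes at 1 day and 23.7% at 3 days). Scaled to cardiomyocyte markers, 2 of 3 rose at 3 days (91.9% of all genes). Eci1 held 356 and 374 CPM in sham and 175 and 85.6 in MI at 1 day, and 309 and 272 in sham and 27.5 and 28.5 in MI at 3 days. Eci2, which acts in mitochondria and peroxisomes, held 212 and 219 CPM in sham and 151 and 160.3 in MI at 1 day, and 169.6 and 152 in sham and 79.1 and 81.8 in MI at 3 days. Both isomerases were lower in MI at each day, but by different amounts: at 3 days Eci1 fell 10.4-fold, -3.37 (SE 0.30, adjusted p = 1.48e-05), and Eci2 2.0-fold, -1.0 (SE 0.16, adjusted p = 0.000436), the smallest called fall of the list. The ratio of Eci1 to Eci2 counts was 1.68 to 1.82 in the 4 sham libraries, 1.16 and 0.534 in MI at 1 day and 0.347 and 0.348 in MI at 3 days. The difference between the days was called for Eci1, except when sham library A (adjusted p = 0.0656) or sham library B at 1 day was left out (adjusted p = 0.0675). It was not called for Eci2 (-0.53, adjusted p = 0.109), but was by DESeq2's Wald test (-0.59, adjusted p = 0.03). Without MI library A at 1 day the difference for Eci2 was -0.70. The fall of Eci2 at 1 day (adjusted p = 0.0369) was lost without either sham library of that day or either MI library at 3 days (adjusted p = 0.0763 to 0.139), and in transcript reads (adjusted p = 0.0666). Decr1 held 579.7 and 649 CPM in sham and 368 and 379 in MI at 1 day, and 556 and 479.9 in sham and 98.2 and 97.4 in MI at 3 days. It fell 5.30-fold at 3 days, and its call at 1 day was lost without sham library B (adjusted p = 0.0613).

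Electrons of the first dehydrogenation pass to the flavoprotein made of Etfa and Etfb and on to its ubiquinone oxidoreductase, Etfdh. With TMM scaling 3 of 3 fell at each day (19.7% of all genes at 1 day and 23.7% at 3 days). Scaled to cardiomyocyte markers, 3 of 3 rose at 3 days (91.9% of all genes). On that scale Etfb was the 1 member that fell at 1 day, -0.60 (SE 0.19, adjusted p = 0.022), beside 3.30% of all genes. Etfa held 184 and 222 CPM in sham and 119.8 and 98.0 in MI at 1 day, and 218 and 192 in sham and 35.3 and 36.7 in MI at 3 days. Etfb held 947 and 912 CPM in sham and 389 and 244 in MI at 1 day, and 699 and 669 in sham and 71.1 and 83.4 in MI at 3 days. The subunits were apart between MI and sham at each day, with the larger fall in Etfb, by 1.55 at 1 day and 3.15 at 3 days, against 0.90 and 2.51 for Etfa. The ratio of Etfa to Etfb counts was 0.195 to 0.312 in sham, 0.308 and 0.402 in MI at 1 day, and 0.496 and 0.440 in MI at 3 days. Etfdh held 1086 and 1165 CPM in sham and 607 and 742 in MI at 1 day, and 979 and 936 in sham and 98.8 and 96.3 in MI at 3 days. It was 9.82-fold lower at 3 days, -3.30 (SE 0.18, adjusted p = 1.51e-06), the largest fall of the 3. The call of Etfa at 1 day was lost without sham library B (adjusted p = 0.0538), and the call of Etfb for the difference between days when either sham library at 1 day was left out (adjusted p = 0.0529 and 0.0673).

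Acyl-CoA thioesterases release the free acid again, Acot1 in the cytosol and Acot2 in mitochondria, and Acot13 is a small thioesterase linked to mitochondria. At 3 days 3 of 3 fell with TMM scaling (23.7% of all genes), and 2 of 3 rose when scaled to cardiomyocyte markers (91.9% of all genes). Acot1 and Acot2 are near-identical neighbours on chromosome 12, 15624 bases apart, so how their reads were shared is uncertain. Acot1 held 32.4 and 33.9 CPM in sham and 22.7 and 19.2 in MI at 1 day, and 31.1 and 30.1 in sham and 4.05 and 3.81 in MI at 3 days. Acot2 held 115 and 116 CPM in sham and 123 and 72.7 in MI at 1 day, and 124 and 112 in sham and 6.92 and 8.70 in MI at 3 days. At 1 day Acot2 overlapped between the groups, with MI library A above both sham libraries, and its change was -0.23 (SE 0.24, adjusted p = 0.462); without that library it passed at -0.76 (adjusted p = 0.00774). At 3 days Acot2 fell 15-fold, the larger fall of the pair, and Acot1 7.79-fold. The call of Acot1 at 1 day (adjusted p = 0.0244) was lost without either sham library of that day or either MI library at 3 days (adjusted p = 0.0576 to 0.114). Acot13 held 289 and 309.6 CPM in sham and 132 and 106 in MI at 1 day, and 267 and 238 in sham and 54.0 and 48.2 in MI at 3 days. It had the fifth largest fall of the list at 1 day, -1.33 (SE 0.18, adjusted p = 0.000642), and the smallest fall of the 3 thioesterases at 3 days, -2.31 (SE 0.18, adjusted p = 6.89e-06). The difference between the days for Acot13, -0.98 (SE 0.25, adjusted p = 0.019), was not called without any 1 of the sham libraries or of the MI libraries at 3 days (adjusted p = 0.0564 to 0.146).

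Mlycd, malonyl-CoA decarboxylase, which removes the inhibitor of the first shuttle step, held 149 and 140.0 CPM in sham and 67.5 and 41.4 in MI at 1 day, and 121 and 119 in sham and 10.3 and 12.8 in MI at 3 days. It was lower in MI without overlap, 2.63-fold at 1 day and 10.4-fold at 3 days, -3.37 (SE 0.25, adjusted p = 5.26e-06). Scaled to cardiomyocyte markers it rose by 0.53 at 3 days, where the median of all genes was 4.06. Of the lipid droplet proteins, Plin5, the perilipin of oxidative tissues that ties droplets to mitochondria (chromosome 17, 56111597 to 56117606), held 281 and 251 CPM in sham and 148 and 117 in MI at 1 day, and 199.6 and 216 in sham and 5.28 and 5.44 in MI at 3 days. Its libraries were close within every group and apart between MI and sham. The fall at 3 days, 38.7-fold or -5.27 (SE 0.22, adjusted p = 1.26e-06), was the largest of the list in gene counts. Plin5 also fell when scaled to cardiomyocyte markers, -1.37 (SE 0.18, adjusted p = 2.98e-05). Pnpla2, adipose triglyceride lipase, held 246 and 227 CPM in sham and 242 and 111 in MI at 1 day, and 166 and 146 in sham and 19.2 and 17.8 in MI at 3 days. At 1 day its MI libraries differed, with A within the sham range and B under it, and its change of -0.42 (SE 0.30, adjusted p = 0.285) passed without library A (adjusted p = 0.00067). At 3 days Pnpla2 was 8.45-fold lower, and scaled to cardiomyocyte markers it rose by 0.82, beside the same median of 4.06.

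The uncoupling proteins, carriers of the inner membrane whose role in heart is debated, moved apart. Ucp3, the form of muscle (chromosome 7, 100472991 to 100486432), held 42.2 and 26.9 CPM in sham and 74.5 and 35.0 in MI at 1 day, and 39.3 and 40.8 in sham and 0.901 and 1.87 in MI at 3 days. At 1 day MI library A was above both sham libraries and B between them, and at 3 days both MI libraries were under 2 CPM. Its change was 0.68 (SE 0.35, adjusted p = 0.153) at 1 day and -4.81 (SE 0.47, adjusted p = 2.35e-05) at 3 days, and the difference of -5.49 (SE 0.59, adjusted p = 0.00037) was the largest of the list. Without MI library B at 1 day, Ucp3 passed at 1.11 (adjusted p = 0.0211), and without library A its change was -0.073. Ucp2, the widely expressed form, begins 6904 bases beyond the end of Ucp3, and held 77.9 and 63.6 CPM in sham and 116 and 52.5 in MI at 1 day, and 64.8 and 71.2 in sham and 146 and 175 in MI at 3 days. At 1 day its groups overlapped, and at 3 days both MI libraries were above both sham libraries. Ucp2 was the only member called higher at 3 days with TMM scaling, 2.36-fold or 1.24 (SE 0.31, adjusted p = 0.00702). It missed the threshold at 3 days without sham library A (adjusted p = 0.0654), without MI library A (adjusted p = 0.056) and without MI library B (adjusted p = 0.139), each time with the same direction. Scaled to cardiomyocyte markers, Ucp2 was 5.14 and Ucp3 -0.92 at 3 days, and only Ucp2 of the pair passed. Macrophages are known to express Ucp2, and the 12 macrophage markers rose at 3 days; their part in this value was not tested. At 1 day Ucp2 passed at 0.72 without MI library B (adjusted p = 0.0159) and was -0.52 without library A.

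Per kilobase, Ucp2 made up 58.6% to 71.9% of the sum of Ucp2 and Ucp3 in the 6 libraries other than MI at 3 days, and 99.2% and 99.0% there. Set in order of transcript-table CPM per kilobase, which allows for transcript length, Fabp3 was the highest member in both sham groups. In sham at 1 day Fabp3 held 2564 ± 281 (SD, n = 2). It was followed there by Hadhb at 805 ± 57.7 and Cd36 at 804 ± 113, which lay within each other's spread. Acadvl at 717 ± 7.53 came next, with both libraries just under those of Hadhb and Cd36, and Ucp3 at 6.78 ± 1.79 was the lowest. In MI at 3 days Cd36 led at 228 ± 16.2, before Fabp3 at 164 ± 39.1. Cpt1b went from place 14 of 32 in sham at 1 day to place 29 in MI at 3 days, and Ucp2 from 29 to 12. The levels of Cpt1b, Fabp3 and Hadhb on this scale rest on the table in which they had more reads per gene count, 224 for Cpt1b. Reads shared between transcripts can count more than once in that table, so the places of genes are approximate.

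**Figure D4:**
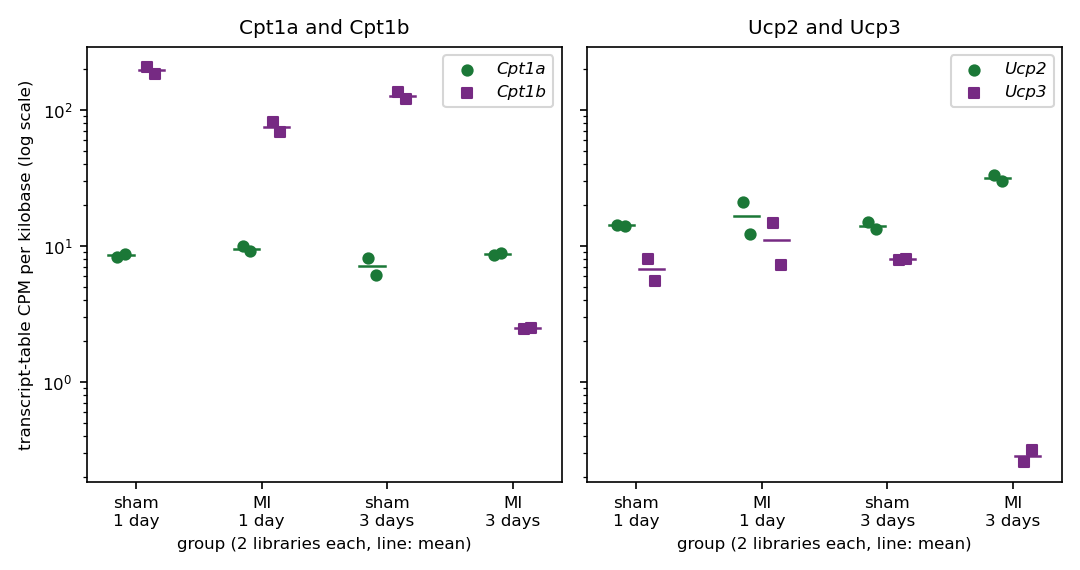
Points are single libraries and lines their group means, on a log axis of transcript-table CPM per kilobase, for Cpt1a with Cpt1b and for Ucp2 with Ucp3. Cpt1b and Ucp3 lie far lower in MI at 3 days than in any other group, while Cpt1a stays between 6.15 and 9.93 and Ucp2 is highest there.

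The scaling sets where 0 lies. The median change of all genes was 0.12 at 1 day and 0.16 at 3 days with TMM, 0.07 and 0.03 with DESeq2 size factors, 0.39 and 0.43 with library size alone, and 1.08 and 4.06 when scaled to the cardiomyocyte markers. The median of the 32 members stood below that of all genes by nearly the same amount in each, at -0.85 to -0.84 at 1 day and -3.25 to -3.24 at 3 days. A change of scaling moves every gene by nearly the same amount, so this gap could hardly have differed between scalings. With library size alone 15 members fell and 2 rose at 1 day, Cd36 and Ucp3. The falls of Slc25a20, Acadl, Acadm, Eci2, Decr1, Etfdh and Acot1 were no longer called. The share of all genes called with library size alone is not given here. Relative to the cardiomyocyte markers, 23 members rose at 3 days beside 91.9% of all genes, and Plin5 and Acsl1 fell beside 0.619%. The 18 markers themselves ranged from -1.26 to 1.44 on that scale at 3 days, with 2 called lower and 3 higher. Acsl1 and many of the risen members lay within that range, which the standard errors do not take in. The summed level of the list per 100 CPM of cardiomyocyte markers was 12.2 and 15 in sham and 16.1 and 14.3 in MI at 1 day, and 17.8 and 11.3 in sham and 33.4 and 34.8 in MI at 3 days. On this measure the groups overlapped at 1 day, and both MI libraries were above both sham libraries at 3 days.

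**Figure D5:**
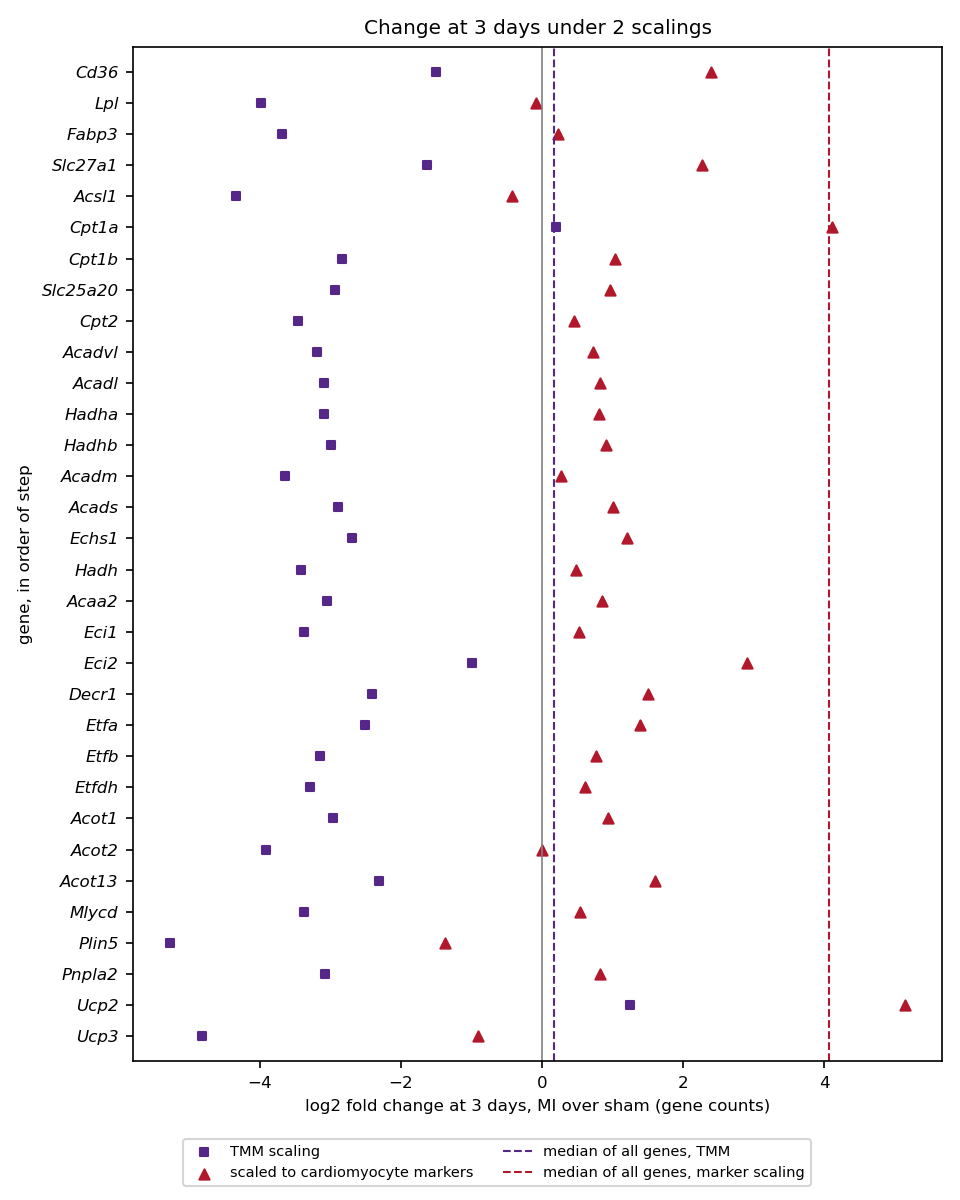
For each gene, the log2 fold change at 3 days with TMM scaling (squares) and with libraries scaled to the cardiomyocyte markers (triangles), with dashed lines at the median of all genes, 0.16 and 4.06. Most members lie below -2 by the first scaling and between 0 and 2 by the second, and nearly all lie left of the median of all genes in both; Cpt1b is drawn from its few gene counts.

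Other genes of the pathway, from lists that leave the members out, were read in the same fit, with 19.7% of all genes lower and 19.3% higher at 1 day and 23.7% and 31.7% at 3 days. Of 14 regulators, 9 fell and 1 rose at 1 day, and 11 fell and 0 rose at 3 days. Scaled to cardiomyocyte markers, 4 fell and 5 rose at 1 day, and 4 fell and 6 rose at 3 days. Of all genes, that scaling had 3.30% fall and 54.9% rise at 1 day, and 0.619% fall and 91.9% rise at 3 days. Ppara, the receptor PPARalpha, held 217 and 199 CPM in sham and 81.7 and 38.0 in MI at 1 day, and 112 and 185 in sham and 4.54 and 5.58 in MI at 3 days. Its change was -1.78 (SE 0.34) and -4.87 (SE 0.41), beside -1.99 (SE 0.40) and -4.32 (SE 0.45) for Ppargc1a, which encodes PGC-1alpha, and -2.26 (SE 0.36) and -2.69 (SE 0.36) for Esrra, which encodes ERRalpha. The largest falls of the list were Perm1 at 1 day, -2.28 (SE 0.23), and Esrrb at 3 days, -5.15 (SE 0.25). Pdk4, the kinase that shuts off pyruvate dehydrogenase, rose at 1 day from 809 and 458 to 2306 and 1622 CPM, 1.63 (SE 0.28). At 3 days Pdk4 fell from 459 and 542 to 45.4 and 49.4, -3.40 (SE 0.30).

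Of 9 partners of uptake, 2 fell and 2 rose at 1 day and 2 fell and 4 rose at 3 days. Angptl4, an inhibitor of lipoprotein lipase, rose from 25 and 20.7 to 611 and 398 CPM at 1 day, 4.47 (SE 0.28), and by 3.25 (SE 0.27) at 3 days. By the same edgeR test Lpl just missed the threshold at 1 day (adjusted p = 0.0511) and fell at 3 days. Lmf1, a maturation factor of lipases, fell most at 1 day, -1.65 (SE 0.25), Vldlr fell most at 3 days, -3.95 (SE 0.19), and Fabp5 rose most there, 3.57 (SE 0.29). Of 10 other genes of activation and transport, 5 fell and 2 rose at 1 day, and 5 fell and 4 rose at 3 days. Acsl4 rose by 2.05 (SE 0.23) and 2.2 (SE 0.22), and Acacb, the acetyl-CoA carboxylase that makes malonyl-CoA at mitochondria, changed by -1.89 (SE 0.24) and -4.87 (SE 0.28). Acsl6 had the largest fall at 3 days, -5.14 (SE 0.39), in the opposite direction from Acsl4. Of 19 other mitochondrial enzymes, 16 fell and 1 rose at 1 day and 17 fell and 1 rose at 3 days. They were led down by Acot11, -1.81 (SE 0.28), at 1 day and Acad12, -4.57 (SE 0.23), at 3 days, and up by Acot9, 1.04 (SE 0.20) and 1.57 (SE 0.20).

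Of 19 peroxisomal genes tested of 20 listed, 10 fell and 0 rose at 1 day, and 11 fell and 1 rose at 3 days, with medians of -0.66 and -0.92 beside -0.74 and -3.08 for the members. The largest fall at 1 day was Decr2, -1.55 (SE 0.21), and the rise at 3 days was Abcd2, 0.60 (SE 0.23). Acot3, called lower at 3 days, held 1.55 and 1.59 CPM in sham and 0 and 0.0340 in MI, which is under the level of 3 counts, so no fold is given. Of 14 lipid droplet and lipolysis genes tested of 15 listed, 5 fell and 2 rose at 1 day, and 8 fell and 3 rose at 3 days. Hilpda, which inhibits the lipase Pnpla2, rose by 4.05 (SE 0.43) and 3.36 (SE 0.40). Fitm2 fell most at 1 day, -2.01 (SE 0.18), and Dgat2, which makes triglyceride, at 3 days, -4.53 (SE 0.30). Scaled to cardiomyocyte markers, 1 fell and 7 rose at 1 day among uptake partners, 1 fell and 5 rose for activation and transport, 0 fell and 2 rose of the mitochondrial enzymes, 1 fell and 3 rose of the peroxisomal genes, and 2 fell and 4 rose of the lipid droplet genes. With that scaling most calls at 3 days were rises, 8 of 8 for uptake partners and 6 of 8 for activation and transport. They were 16 of 17 for mitochondrial enzymes, 17 of 17 for peroxisomal genes and 10 of 11 for lipid droplet genes. Of all genes, the same scaling had 3.30% fall and 54.9% rise at 1 day, and 0.619% fall and 91.9% rise at 3 days.

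In the authors' deposited table for 1 day, 20 members had a lower level in MI at an adjusted p under 0.05 and 0 a higher one. In the authors' deposited table for 3 days, whose fold changes are sham over MI, 30 were lower in MI and 1 was higher. The share of all genes called there is not given here for either day, so these counts have no background beside them.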

How the data were processed

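The authors deposited raw gene counts per library in 2 tables, 1 for each day, per the file headers, and they were joined on gene symbol to 24062 genes. The authors deposited transcript tables with total read counts per transcript for 96535 transcripts, which were summed to 31126 genes. Per the file headers these totals include reads that a transcript shares with others, so a read can count more than once. The authors also deposited log2 fold changes and adjusted p-values of DESeq2 for each day. Per the submitters' processing notes, which state neither role nor order, the tools were TopHat2 2.0.14, Bowtie2 2.2.5, HTSeq, SAMtools 0.1.2, FastQC and DESeq2, and the genome build was mm10. The sources used here do not give the annotation, the strand setting or the treatment of reads with several places. Both sham columns at 1 day have the same header, so A and B follow the columns' order, the headers do not show whether they are separate mice, and A in the gene table need not be A in the transcript table.

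The 8 libraries of the 4 groups shared 1 edgeR fit (edgeR 4.0.16 in R 4.3.3). It had TMM factors, the default filter of filterByExpr, which left 15508 genes tested and 8554 not tested, a common dispersion of 0.0602, and 4 residual and a median of 5.51 prior degrees of freedom. Contrasts were tested with the quasi-likelihood test, with Benjamini-Hochberg adjustment over all genes tested. The same fit was run on the transcript reads with the library sizes and TMM factors of the gene counts, over 14471 genes. Standard errors are of the fitted log2 fold change. The depth of 7382490 to 25041386 counts per library sets a level of 3 counts at 0.102 to 0.369 CPM. Levels per kilobase sum, over transcripts, the transcript-table CPM divided by transcript length.

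The alternatives were DESeq2 size factors, library size alone, scaling by the median ratio over 18 cardiomyocyte markers, DESeq2's Wald test (DESeq2 1.42.0), limma-voom (limma 3.58.1), no filter on low counts, each day fitted alone, each library left out in turn, and the transcript reads. The 2 libraries of each group were compared by a chi-square of their counts over genes with at least 20 counts in sum. Of the steps, only edgeR's test of MI against sham at 3 days was run on simulated counts, in which some genes had known folds. The other comparisons, scalings and tests were not simulated. The members and the lists were chosen with earlier results of these data known. Per-library values are given for all members. Of the other lists, the called gene with the largest change in each direction at each day was named, and also Ppara, Ppargc1a, Esrra and Pdk4. In RefSeq 13 members overlap another gene, and 4 of them a protein-coding gene (Fabp3 with Zcchc17, Echs1 with Paox, Etfb with Cldnd2 and Etfdh with Ppid), so some of their reads may belong to the other gene. Positions and promoter sequences are those of RefSeq on GRCm38.p6.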

Additional observations from a re-analysis of the deposited data

Results flagged for a closer look

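The change from sham to MI differed between the days for 28 of the 32 members by the test of the difference itself (edgeR's quasi-likelihood test, Benjamini-Hochberg adjusted p under 0.05), with 11.3% of all genes lower and 13.2% higher by the same test. Each value is the log2 change at 3 days minus that at 1 day with TMM scaling, and each was lower at 3 days. In uptake and activation, the difference was -1.84 for Cd36, -3.47 for Lpl, -2.86 for Fabp3 and -3.49 for Acsl1. In the carnitine shuttle, the difference was -3.30 for Cpt1b, -2.21 for Slc25a20 and -2.29 for Cpt2. In long-chain beta-oxidation, the difference was -2.27 for Acadvl, -2.45 for Acadl, -2.30 for Hadha and -2.60 for Hadhb. In shorter-chain beta-oxidation, the difference was -2.91 for Acadm, -1.39 for Acads, -1.73 for Echs1, -2.13 for Hadh and -2.04 for Acaa2. In the isomerases and the reductase and electron transfer, the difference was -1.90 for Eci1, -1.69 for Decr1, -1.61 for Etfa, -1.59 for Etfb and -2.56 for Etfdh. In the thioesterases and malonyl-CoA removal, the difference was -2.31 for Acot1, -3.68 for Acot2, -0.98 for Acot13 and -1.98 for Mlycd. In the lipid droplet proteins and the uncoupling proteins, the difference was -4.27 for Plin5, -2.66 for Pnpla2 and -5.49 for Ucp3. The difference was not called for Slc27a1, Cpt1a, Eci2 and Ucp2. Cpt1b is given from its few gene counts, and in transcript reads its difference was -4.37.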

How the results depend on the processing

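Over 32 members, 3 comparisons and the alternatives run, 1318 values kept their direction and side of the threshold, 29 passed only under an alternative, 73 no longer passed, and 84 changed direction, of which 66 with libraries scaled to the cardiomyocyte markers. With that scaling the change at 1 day was 0.45 for Lpl, 0.17 for Fabp3, 0.31 for Slc27a1, 0.13 for Acsl1, 0.24 for Slc25a20, 0.050 for Acadvl, 0.35 for Acadl, 0.20 for Hadha and 0.60 for Hadhb. It was further 0.26 for Acadm, 0.52 for Eci2, 0.27 for Decr1, 0.069 for Etfa, 0.26 for Etfdh, 0.31 for Acot1, 0.71 for Acot2 and 0.51 for Pnpla2. With that scaling the change at 3 days was 2.39 for Cd36, 0.22 for Fabp3, 2.27 for Slc27a1, 1.03 for Cpt1b, 0.96 for Slc25a20, 0.45 for Cpt2, 0.72 for Acadvl, 0.81 for Acadl and 0.81 for Hadha. It was further 0.91 for Hadhb, 0.26 for Acadm, 1.01 for Acads, 1.21 for Echs1, 0.48 for Hadh, 0.85 for Acaa2, 0.53 for Eci1, 2.90 for Eci2 and 1.5 for Decr1. It was further 1.39 for Etfa, 0.76 for Etfb, 0.61 for Etfdh, 0.94 for Acot1, 1.59 for Acot13, 0.53 for Mlycd and 0.82 for Pnpla2. With that scaling the difference between the days was 1.07 for Cd36, 0.050 for Fabp3, 1.96 for Slc27a1, 0.73 for Slc25a20, 0.64 for Cpt2, 0.67 for Acadvl, 0.47 for Acadl, 0.61 for Hadha and 0.31 for Hadhb. It was further 0.0065 for Acadm, 1.59 for Acads, 1.21 for Echs1, 0.82 for Hadh, 0.87 for Acaa2, 1.07 for Eci1, 2.39 for Eci2, 1.23 for Decr1 and 1.32 for Etfa. It was further 1.36 for Etfb, 0.35 for Etfdh, 0.63 for Acot1, 1.96 for Acot13, 0.98 for Mlycd and 0.31 for Pnpla2. Members called at 1 day numbered 8 with that scaling, 1 fallen and 7 risen (3.30% and 54.9% of all genes), against 22 fallen with TMM (19.7%). The 1 fallen was Etfb, and the 7 risen were Cd36, Cpt1a, Hadhb, Eci2, Acot2, Ucp2 and Ucp3. DESeq2's Wald test called 1 member between the sham days, against 0. Leaving out 1 library at a time, the values that changed direction at 1 day ranged over -0.017 to 0.30 for Cpt1a, -0.089 to 0.75 for Cpt1b, -0.76 to 0.090 for Acot2, -1.19 to 0.031 for Pnpla2, -0.52 to 0.72 for Ucp2 and -0.073 to 1.11 for Ucp3. Leaving out 1 library at a time, the values that changed direction at 3 days ranged over -0.18 to 0.30 for Cpt1a. Leaving out 1 library at a time, the values that changed direction for the difference between the days ranged over -0.34 to 0.17 for Cpt1a. The number of members called ranged over 15 to 26 at 1 day, lowest without sham library B and highest without MI library A of that day, 29 to 31 at 3 days and 23 to 29 for the difference. Cpt1a, whose values were close to 0, changed direction at 3 days with that day fitted alone (-0.026), and for the difference with DESeq2 size factors (-0.081), library size alone (-0.0095) and DESeq2's Wald test (-0.060). At 1 day Acot2 was 0.033 with library size alone, and Cpt1b was -1.40 in transcript reads. The causes were not tested, apart from those that an alternative's own construction shows. No paired analysis was possible because the count columns carry no replicate numbers. With 2 libraries a group, p-values rest on a spread shared by all 8 libraries, and where 1 library of a group is left out, the lone one is assumed to vary like the others. Cpt1b had 2 to 42 gene counts per library, against 147 to 10090 transcript reads, which limits the precision of its gene-count values; the cause of the low gene counts was not tested. The fit with no filter, limma-voom and DESeq2's tests kept the number of members called in each of the other comparisons within 1.5 times of that given. For these alternatives and for the fits without 1 library, the share of all genes called is not given here.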

Other observations

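In the levels of the members, the 2 MI libraries at 1 day differed by over 1.5-fold more often than those of any other group, whereas over all genes the chi-square per degree of freedom was highest in sham at 3 days. Leaving out Cpt1b, whose gene counts are few, the higher library stood over the lower by more than 1.5-fold in 10 of 31 members there, against 1 in sham at 1 day, 0 in sham at 3 days and 1 in MI at 3 days. The 10 were Slc27a1, Acads, Hadh, Eci1, Etfb, Acot2, Mlycd, Pnpla2, Ucp2 and Ucp3, with library A the higher in each. The ratio was highest for Ucp2, at 2.21, and its median over the 31 members was 1.24. Acadl, Decr1, Acadm, Eci2 and Acaa2, which act in the same matrix pathway, differed by less than 1.08-fold between the same libraries. Library A held 12662237 counts and library B 7382490, and neutrophil markers summed to 2009 CPM in A and 964 in B; the part of either in this spread was not tested.

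Markers of adipocytes, cells that share Lpl, Cd36 and Pnpla2 with heart muscle, summed to 29.8 and 28.1 CPM in sham and 8.51 and 16 in MI at 1 day, and to 19.6 and 20 in sham and 0.983 and 1.02 in MI at 3 days, with Lep and Cidec at 0 in both MI libraries at 3 days. Of the 8 markers 5 were at 0 in at least 1 library, and Slc36a2 alone held 23.6 and 23.3 CPM of the sum in sham at 1 day. Their part in the values of these 3 members was not tested. Markers of proliferating cells summed to 18.4 to 94.4 CPM in the other 6 libraries and to 1375 and 1505 in MI at 3 days.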
